A study of Homo sapiens with 6 samples.

Results

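The genes described here are 41 genes of antioxidant defence, glutathione metabolism, NADPH supply and iron handling, taken by name from a fixed list and found as 41 of the 58051 gene rows of the count table. Aldo-keto reductases, a further family of the same response, were left out of the list. PolyA RNA was sequenced from U2OS, an osteosarcoma cell line, and read counts per gene were compared between 3 libraries of cells given a scrambled siRNA (siSCR) and 3 libraries of cells given an siRNA against SURF2 (siSURF2). All cells were of the same line, grown with 10% serum at 37 °C and 5% CO2, all received an siRNA, in 2 transfections 49 h apart, and all were harvested at 96 h. The labels name 1 cell line and do not say whether the replicates were separate cultures or which siRNA sequence was used, so p-values reflect only how far these libraries differed among themselves, which may be technical. The comparison bears on which mRNAs of redox and iron metabolism differ when SURF2, a nucleolar protein, is lowered.

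NRF2, encoded by NFE2L2, is a transcription factor that is held in the cytoplasm and sent for degradation by KEAP1 until oxidants or electrophiles modify KEAP1. It then pairs with a small MAF protein such as MAFG and binds antioxidant response elements, DNA sites that BACH1 occupies as a repressor. Its targets make and recycle glutathione, regenerate thioredoxin, supply NADPH, detoxify quinones and store iron. Ferritin and transferrin receptor mRNAs are in addition controlled after transcription by iron regulatory proteins.

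Counts assigned to genes ranged from 17123333 to 19688089 per library, so that 1 CPM (count per 1e6 counts, scaled with TMM factors) stood for 16.8 to 20.01 counts. SURF2 itself was lower in each siSURF2 library, at 3.20 to 3.74 CPM against 32.3 to 36.2 CPM (log2 fold change -3.31 ± 0.10, SE, edgeR adjusted p = 3.7e-20). Of 8 mesenchymal and osteoblast lineage markers VIM was the highest, at 1964 CPM in siSCR, and the 8 together summed to 3400 to 3490 CPM in siSCR and 3860 to 4200 CPM in siSURF2. Of these, COL1A2 was near 0, at 0.129 CPM in siSCR. The 6 epithelial markers summed to 1480 to 1610 CPM in siSCR and 1040 to 1110 CPM in siSURF2, most of it the keratins KRT8 and KRT18, which fell, as did CDH1, while EPCAM (0.99 ± 0.13) and CLDN4 (1.07 ± 0.08) rose. Blood markers summed to at most 1.37 CPM in any library, with CD3E and HBB at 0 counts in all 6, and endothelial markers to at most 5.39 CPM. The library siSURF2 replicate 2 stood somewhat apart, since its counts gave chi-square values over degrees of freedom of 8.87 and 10.3 in comparison with the other siSURF2 libraries, which gave 2.87 between them. Mitochondrially encoded genes held 2.71% of its counts, 4.68% and 4.72% in siSURF2 replicates 1 and 3, and 2.89% to 3.49% in siSCR, and the part of this and of the marker differences in the results below was not tested.

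With siSURF2, 21 of the 41 genes were called higher and 7 lower, and the remaining 13 missed the threshold (edgeR quasi-likelihood F-test, p-values adjusted by the Benjamini-Hochberg method over 17561 genes, called when under 0.05). All 41 passed the filter on low counts. In such bulk RNA, fewer cells of a type and less RNA per cell cannot be told apart. Over all genes tested, 52.0% passed in either direction, 25.8% higher and 26.2% lower, against 51.2% and 17.1% of the 41. A rise of at least 1.5-fold was seen in 8 of the 41 genes, against 11.0% of all genes tested. These were ABCC3, NQO1, SLC7A11, MGST1, HMOX1, FTH1, EPHX1 and GCLC, while none of the 7 lower genes fell by that much, the lowest being NFE2L2 at -0.32. The median log2 fold change was 0.13, beside 0.00425 over all genes tested. Of 29 genes commonly listed as NRF2 targets, 17 rose and 4 fell, with a median of 0.20, and of the other 12 members 4 rose and 3 fell, with a median of 0.06. Without siSURF2 replicate 2, 18 members rose and 8 fell, and without siSURF2 replicate 1, 4 fell. With library sizes set by the ERCC spike-ins, whose share varied from 1.12% to 1.72% between libraries, SLC7A11, MGST1, ABCC3, NQO1, HMOX1 and FTH1 were the only 6 of the 28 that still passed, and every member called higher or lower kept its direction.

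**Figure D1:**
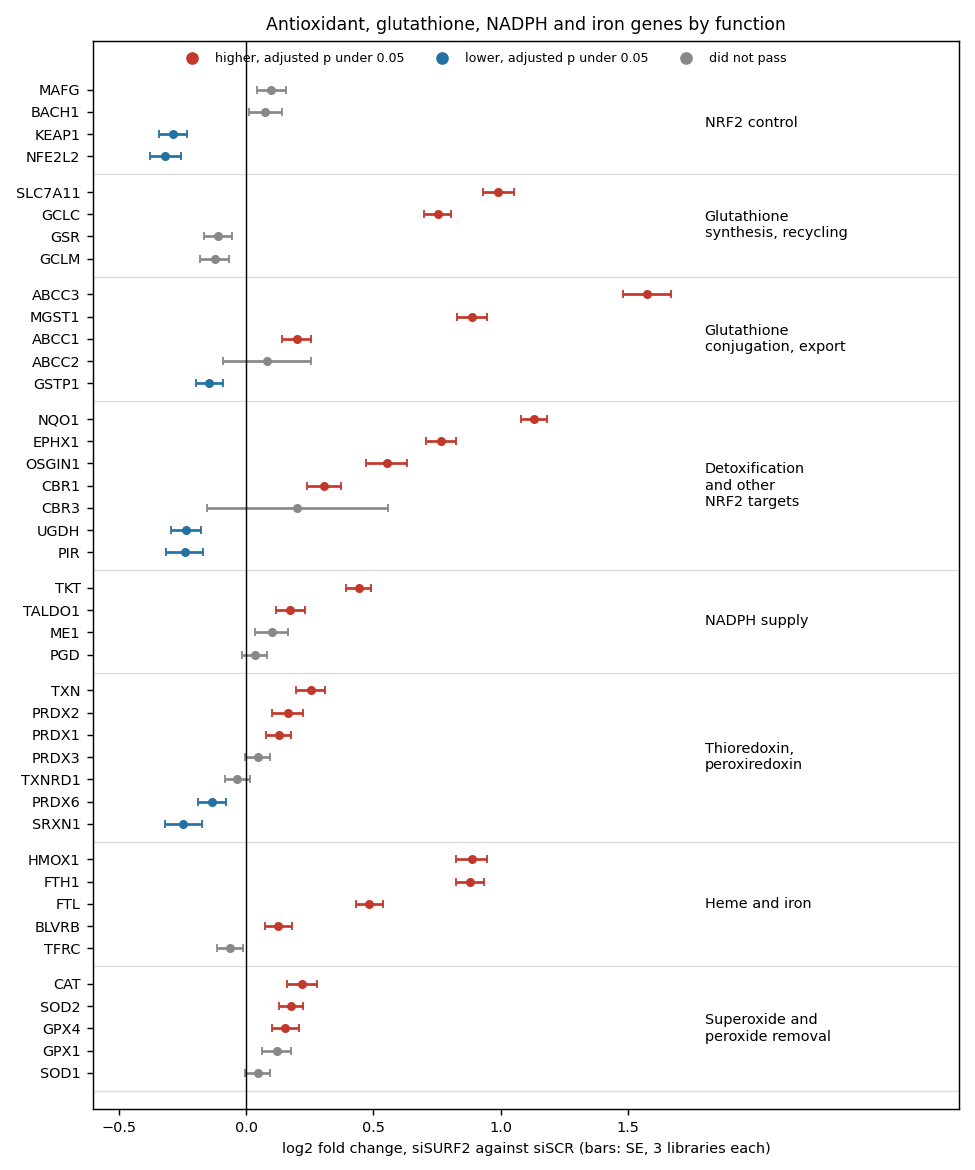
Log2 fold change of siSURF2 against siSCR for the 41 genes, grouped by function, with bars of 1 SE (3 libraries per group) and colour for the edgeR call. The highest values are those of ABCC3 (1.57), NQO1 (1.13) and SLC7A11 (0.99), and the lowest is that of NFE2L2 (-0.32).

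Among the regulators of the response, the mRNAs of both NRF2 and its inhibitor were lower with siSURF2. NFE2L2 was at 74.9, 81.1 and 87.2 CPM in siSCR replicates 1, 2 and 3 and at 60.8, 69.9 and 64.8 CPM in siSURF2 replicates 1, 2 and 3. The groups did not overlap, and the log2 fold change was -0.32 ± 0.06 (SE, adjusted p = 1.1e-04). NFE2L2 shares 54 exonic bases with AGPS on the opposite strand, which had more counts and rose (0.37), and the sources used here do not say whether strand was used in counting. KEAP1, the adaptor that brings NRF2 to a ubiquitin ligase, was at 98.4, 94.8 and 86.9 CPM in siSCR and 75.7, 78.8 and 74.9 CPM in siSURF2, again without overlap (-0.29 ± 0.06, adjusted p = 9.6e-05). The ratio of NFE2L2 to KEAP1 within a library, per exon length, was 0.550 ± 0.0767 in siSCR and 0.536 ± 0.0274 in siSURF2 (SD, n = 3 each, exact permutation p = 1.0). BACH1 and MAFG overlapped between groups, at 67.4 ± 5.41 against 71.0 ± 5.34 CPM for BACH1 and 122.7 ± 7.82 against 131.3 ± 6.67 CPM for MAFG, and did not pass (adjusted p = 0.35 and 0.14). The MAFG adjusted p was 0.049 without siSURF2 replicate 1.

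Of 13 other genes of NRF2 control tested, 2 rose and 6 fell, with a median of -0.18. These are 15.4% and 46.2%, beside 25.8% and 26.2% of all genes tested. MAFF, a small MAF protein, fell from 27.8 ± 1.91 to 15.8 ± 0.951 CPM (-0.82 ± 0.08), and SQSTM1, an autophagy receptor that binds KEAP1, fell from 474.5 ± 29.6 to 353.8 ± 20.9 CPM (-0.42 ± 0.05). DPP3, a peptidase that also binds KEAP1, rose by a log2 fold change of 0.49 ± 0.06. NFE2L3, an NRF2 relative, was called higher at a mean of only 2.14 CPM (0.62 ± 0.26, adjusted p = 0.046). That call was lost when any siSCR library was left out (0.59, 0.59 and 0.66 for replicates 1, 2 and 3), or siSURF2 replicate 1 (0.67) or 3 (0.37). The count of 2 that rose in this list was lower in 10 of 16 alternatives, and 0 with ERCC library sizes.

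Glutathione is built from cysteine, which enters the cell as cystine through the exchanger subunit SLC7A11, and the rate-limiting ligase joins a catalytic subunit, GCLC, to a modifier subunit, GCLM. SLC7A11 (chromosome 4, 138164097 to 138242349) was at 51.7, 51.7 and 57.7 CPM in siSCR and 99.5, 106.6 and 113.9 CPM in siSURF2. All siSURF2 libraries lay well above all siSCR libraries, a 1.99-fold higher level (0.99 ± 0.06, adjusted p = 1.0e-13). GCLC (chromosome 6, 53497341 to 53616970) was at 74.1, 73.8 and 78.3 CPM in siSCR and 120.7, 128.3 and 131.9 CPM in siSURF2, a 1.68-fold higher level (0.75 ± 0.05, adjusted p = 2.3e-12). Its partner GCLM did not pass the threshold. It was at 83.0, 80.8 and 82.4 CPM in siSCR and 69.2, 79.6 and 77.1 CPM in siSURF2, each of them lower than the lowest siSCR library (-0.12 ± 0.06, adjusted p = 0.074, and 0.033 without siSURF2 replicate 2). The GCLC to GCLM ratio was 0.560, 0.573 and 0.596 in siSCR and 1.09, 1.01 and 1.07 in siSURF2, per exon length. The groups did not overlap, and an exact two-sided permutation test gave p = 0.10, the smallest that 3 libraries against 3 allow (0.12 adjusted over 6 ratios, which were chosen after the values were seen). GSR, which reduces oxidised glutathione with NADPH, was at 176.5 ± 14.4 CPM in siSCR and 163.6 ± 3.95 CPM in siSURF2 and did not pass (-0.11 ± 0.05, adjusted p = 0.098). It was called lower without siSCR replicate 3, the lowest of its group (-0.17, adjusted p = 0.0076).

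Conjugation and export genes included the highest riser of the 41. ABCC3, a transporter that exports glutathione and glucuronide conjugates (chromosome 17, 50634777 to 50692252), was at 16.2, 16.7 and 19.2 CPM in siSCR and 48.3, 46.7 and 60.3 CPM in siSURF2. The groups did not overlap, siSURF2 replicate 3 being the highest, and the level was 2.98-fold higher (1.57 ± 0.09, adjusted p = 7.4e-12). ABCC1, a related exporter, rose less, from 57.6 ± 1.17 to 66.0 ± 3.36 CPM (0.20 ± 0.06). ABCC2, another transporter of this family, had 60 to 114 counts per library and overlapped between groups (0.08 ± 0.17). MGST1, a membrane-bound glutathione transferase and peroxidase, was at 37.3, 34.9 and 34.6 CPM in siSCR and 64.9, 65.3 and 66.9 CPM in siSURF2, with a gap between groups far wider than the spread within them (0.89 ± 0.06, adjusted p = 6.9e-13). GSTP1, the main soluble transferase of many tumour cells, went the other way, from 581.0 ± 36.0 to 525.5 ± 28.8 CPM, with overlapping groups (-0.14 ± 0.05, adjusted p = 0.024). That call was lost on leaving out siSCR replicate 1 (-0.10), siSURF2 replicate 1 (-0.12) or siSURF2 replicate 3 (-0.11), each with an adjusted p of 0.12, and with upper-quartile factors (adjusted p = 0.092) or no filter (0.057).

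Of 32 tested other glutathione genes, 8 rose and 5 fell, with a median of 0.00356. These are 25.0% and 15.6%, beside 25.8% and 26.2% of all genes tested, so the share that rose was near that of all genes. GGT1, which cleaves glutathione outside the cell, rose from 6.20 ± 1.37 to 11.4 ± 1.08 CPM (0.88 ± 0.14), and GSTK1, an organelle glutathione transferase, rose by 0.45 ± 0.06. GGCT, which acts on gamma-glutamyl amino acids, fell from 85.9 ± 1.19 to 56.1 ± 1.07 CPM (-0.61 ± 0.05), and GLRX5, a mitochondrial glutaredoxin of iron-sulfur cluster assembly, fell by 0.21 ± 0.06 on the log2 scale.

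In the group of quinone, carbonyl and epoxide detoxification and other NRF2 targets, 4 of 7 genes rose, 2 fell and CBR3 missed the threshold. That is 57.1% higher and 28.6% lower, beside 25.8% and 26.2% of all genes tested. NQO1, a quinone reductase that is a classical NRF2 target (chromosome 16, 69706996 to 69726951), was at 110.7, 102.7 and 105.2 CPM in siSCR and 224.2, 237.8 and 235.3 CPM in siSURF2. Each siSURF2 library was above every siSCR library, a 2.19-fold higher level with the smallest adjusted p of the 41 (1.13 ± 0.05, adjusted p = 1.2e-16). EPHX1, the microsomal epoxide hydrolase, was at 39.9, 37.7 and 38.2 CPM in siSCR and 65.0, 63.6 and 67.8 CPM in siSURF2, a 1.70-fold higher level (0.76 ± 0.06, adjusted p = 1.4e-11). OSGIN1, a stress-induced growth inhibitor, rose from 18.5 ± 0.979 to 27.1 ± 1.64 CPM (0.55 ± 0.08), and CBR1, a carbonyl reductase, rose from 33.5 ± 1.39 to 41.4 ± 2.35 CPM (0.30 ± 0.07). CBR3, its neighbour and paralog on chromosome 21, had only 9 to 17 counts per library, too few to show a change of this size (0.20 ± 0.35). UGDH, which makes the UDP-glucuronic acid used in glucuronidation, fell from 61.9 ± 2.75 to 52.5 ± 1.56 CPM (-0.24 ± 0.06). PIR, a nuclear iron-binding protein, fell from 30.5 ± 0.379 to 25.7 ± 1.75 CPM (-0.24 ± 0.07, adjusted p = 0.0063, and 0.082 without siSURF2 replicate 1, with a log2 fold change of -0.17).

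Of 11 other detoxification genes tested, 4 rose and 2 fell, with a median of -0.0084. These are 36.4% and 18.2%, beside 25.8% and 26.2% of all genes tested. ALDH3A2, a fatty aldehyde dehydrogenase, rose by 0.63 ± 0.07 and PTGR1, a reductase of unsaturated carbonyls, by 0.63 ± 0.08. UGP2, which makes the UDP-glucose that UGDH oxidises, fell from 183.3 ± 5.64 to 118.1 ± 1.11 CPM (-0.63 ± 0.05). ADH5, which oxidises the glutathione adduct of formaldehyde, fell by 0.23 ± 0.05 on the log2 scale.

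**Figure D2:**
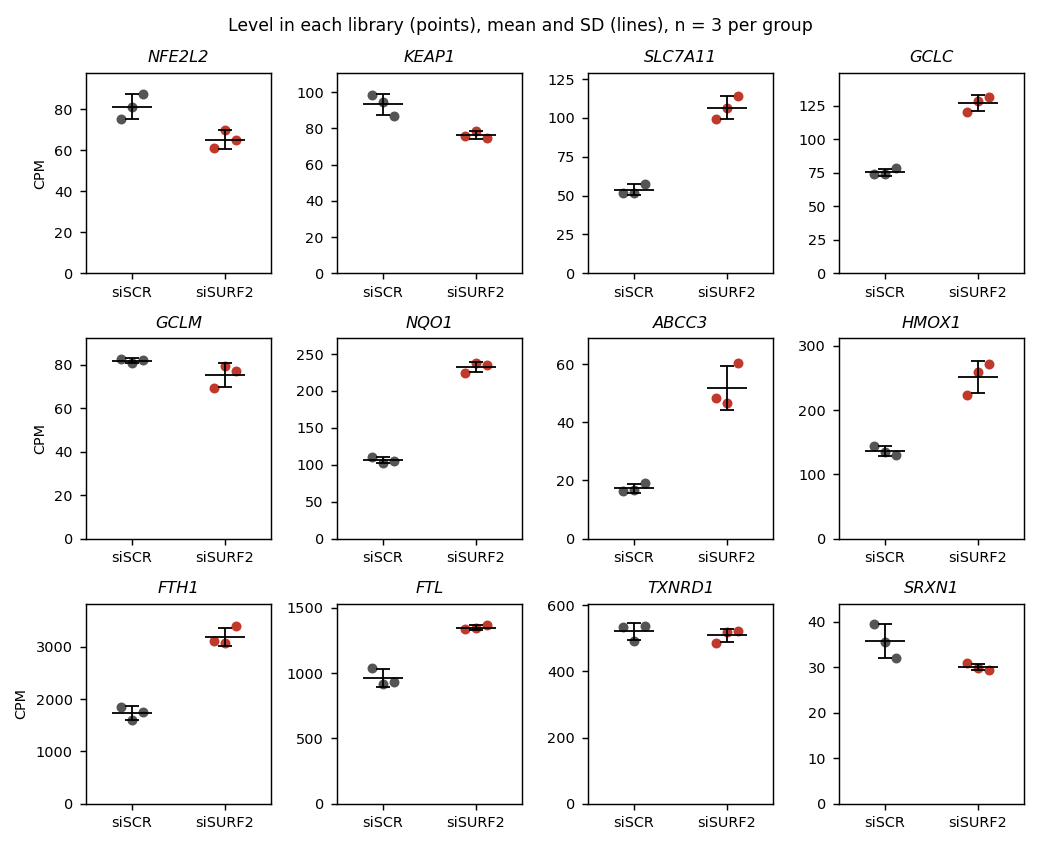
CPM in each library (points) with mean and SD (lines) for 12 of the genes, siSCR in grey and siSURF2 in red, 3 libraries each and axes from 0. SLC7A11, GCLC, NQO1, ABCC3, HMOX1, FTH1 and FTL lie higher in every siSURF2 library than in any siSCR library, NFE2L2, KEAP1, GCLM and SRXN1 lie lower, and TXNRD1 overlaps.

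The core letters of the antioxidant response element were searched near the starts of these genes, since many of the 41 are linked to NRF2. The motif TGACNNNGC was sought on both strands in RefSeq promoter windows of 300 bases, from 250 before to 50 after a start (GRCh38.p14), of which 31 of the 41 genes had at least 1. At least 1 match was found in 10 of the 31 genes (32.3%), against 16.1% of the 27305 genes in the table. By window, 11 of the 45 windows of these genes held a match (24.4%), against 13.3% of all 35116 windows. The 10 genes with a match were 3 of the 15 genes that rose, 3 of the 6 that fell and 4 of the 10 that did not pass. All 6 genes past the threshold are shown, with GCLM and TXNRD1 added after their values were seen as genes that carry the motif and did not pass. Each stretch runs 5′ to 3′ in the direction of its gene, with the matches in capitals, on whichever strand they lie. In EPHX1, which rose, the match starts 78 bases before a start, and in CBR1, which rose, 159 bases before it.
EPHX1, chr1:225825246-225825314, plus strand: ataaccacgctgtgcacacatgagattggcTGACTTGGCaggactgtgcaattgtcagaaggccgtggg
CBR1, chr21:36069835-36069903, plus strand: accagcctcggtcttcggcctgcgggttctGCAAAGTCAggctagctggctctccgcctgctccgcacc
The stretch of MGST1, which rose, lies after a start (match at position 31, counting the start as 1).
MGST1, chr12:16347135-16347164, plus strand: ggggacatcgTGACAAAGCaaattgtctgg
KEAP1 and GSTP1, which fell, have matches 54 and 31 bases and 66 bases before a start, and PIR, which fell, has one at position 27 after it.
KEAP1, chr19:10502772-10502855, minus strand: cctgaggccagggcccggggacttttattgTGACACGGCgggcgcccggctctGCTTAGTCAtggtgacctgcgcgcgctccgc
GSTP1, chr11:67583716-67583784, plus strand: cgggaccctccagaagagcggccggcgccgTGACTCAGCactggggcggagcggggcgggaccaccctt
PIR, chrX:15493288-15493317, minus strand: gccgcgaagcGCTGAGTCAcggtgaggcta
GCLM has a match 34 bases before its start, and TXNRD1 has matches 99 and 102 bases before its separate starts, with a further match 8 bases before the first of them that lies outside the stretch shown.
GCLM, chr1:93909431-93909494, minus strand: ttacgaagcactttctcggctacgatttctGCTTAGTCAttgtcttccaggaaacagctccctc
TXNRD1, chr12:104215650-104215718, plus strand: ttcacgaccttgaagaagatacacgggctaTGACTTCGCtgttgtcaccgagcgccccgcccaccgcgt
TXNRD1, chr12:104286900-104286968, plus strand: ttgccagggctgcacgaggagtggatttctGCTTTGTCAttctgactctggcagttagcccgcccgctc
These matches are sequence descriptions, and no binding was measured. The windows of NQO1 and GCLC, which rose by more than CBR1, hold no match to these letters. Bases outside the windows were not searched, so a match farther from a start would be missed.

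NADPH, the electron donor for glutathione and thioredoxin reduction, comes mainly from the pentose phosphate pathway and malic enzyme. Of the 4 genes of this group, TKT and TALDO1 rose and PGD and ME1 did not pass. That is 50.0% higher and 0.0% lower, beside 25.8% and 26.2% of all genes tested. TKT, a transketolase, was at 284.2, 255.0 and 267.6 CPM in siSCR and 363.1, 373.9 and 358.6 CPM in siSURF2, without overlap (0.44 ± 0.05, adjusted p = 1.7e-08). TALDO1, a transaldolase, was at 77.3, 67.9 and 72.9 CPM in siSCR and 82.0, 82.6 and 81.3 CPM in siSURF2 (0.17 ± 0.06, adjusted p = 0.011, and 0.080 without siSCR replicate 2, with a log2 fold change of 0.135). PGD, an NADPH-forming dehydrogenase, was at 235.0 ± 4.58 CPM in siSCR and 240.7 ± 11.4 CPM in siSURF2 (0.03 ± 0.05), and ME1, malic enzyme, at 59.2 ± 6.32 and 63.5 ± 0.727 CPM (0.10 ± 0.06). ME1 was called higher without siSCR replicate 3, the highest of its group (0.18, adjusted p = 0.010).

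Of 17 other NADPH genes, 8 rose, 5 fell and 4 did not pass (47.1% higher and 29.4% lower, beside 25.8% and 26.2% of all genes tested), with a median of 0.27, the 5 being 3 without siSCR replicate 2 and 3 without siSURF2 replicate 1. H6PD, an NADPH-forming enzyme of the endoplasmic reticulum, rose from 19.8 ± 0.479 to 33.1 ± 2.64 CPM (0.74 ± 0.08). RPIA, the isomerase that leads from the oxidative branch to ribose phosphate, was at 43.0, 46.5 and 44.1 CPM in siSCR and 16.4, 16.4 and 15.1 CPM in siSURF2, the lowest log2 fold change of this list (-1.48 ± 0.07, adjusted p = 8.8e-16). MTHFD2, a mitochondrial folate enzyme, fell by 0.29 ± 0.05 on the log2 scale.

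Of the 7 thioredoxin and peroxiredoxin genes, 3 were called higher and 2 lower (42.9% and 28.6%, beside 25.8% and 26.2% of all genes tested), with a median of 0.04 that was -0.01 without siSCR replicate 3. TXN, thioredoxin, was at 103.0, 95.5 and 99.6 CPM in siSCR and 109.8, 120.0 and 125.0 CPM in siSURF2, without overlap (0.25 ± 0.06, adjusted p = 3.5e-04). TXNRD1, the selenoenzyme that reduces it, was at 534.1, 491.7 and 538.1 CPM in siSCR and 486.7, 519.0 and 521.2 CPM in siSURF2, with overlapping groups (-0.03 ± 0.05, adjusted p = 0.60). SRXN1, the sulfiredoxin that repairs overoxidised peroxiredoxins and a common NRF2 target, was at 39.5, 35.6 and 32.1 CPM in siSCR and 30.9, 29.8 and 29.5 CPM in siSURF2. It fell (-0.25 ± 0.07, adjusted p = 0.0065), although without siSCR replicate 1, the highest library, the log2 fold change was -0.18 and the adjusted p 0.054. Peroxiredoxins, which break down hydrogen peroxide, differed among themselves within a narrow range. PRDX1, the highest of them in TPM as well (1831 in siSCR), was at 819.7, 771.3 and 764.5 CPM in siSCR and 869.3, 847.5 and 856.4 CPM in siSURF2 (0.13 ± 0.05, adjusted p = 0.027), and 24.9% of its exonic bases are shared with MMACHC on the opposite strand, a gene with far fewer counts. PRDX2 was called higher with overlapping groups (0.16 ± 0.06, adjusted p = 0.025), and PRDX6, which also acts on phospholipid hydroperoxides, was called lower with overlapping groups (-0.13 ± 0.06, adjusted p = 0.043). PRDX3, the mitochondrial form, was at 265.8 ± 15.1 and 274.2 ± 6.64 CPM and did not pass (0.04 ± 0.05).

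The calls of PRDX1, PRDX2 and PRDX6 were lost when certain single libraries were left out. The PRDX1 adjusted p was 0.076 without siSCR replicate 2, 0.10 without siSCR replicate 3 and 0.056 without siSURF2 replicate 1. For PRDX2 it was 0.076 and 0.13 on leaving out siSCR replicate 2 or 3, and 0.091 and 0.10 on leaving out siSURF2 replicate 1 or 2. For PRDX6 it was 0.13 when siSCR replicate 3 was left out, and 0.38 and 0.076 for siSURF2 replicates 1 and 3, with log2 fold changes of -0.10, -0.07 and -0.13, and 0.070 with DESeq2. It was also over 0.05 with upper-quartile factors (0.16), no factors (0.097), no filter (0.11), limma-voom (0.051) and the non-robust prior (0.052), so that the PRDX6 call was lost in 10 of 16 alternatives. Of 19 other genes of the thioredoxin and methionine sulfoxide systems, 8 rose and 6 fell, with a median of 0.06. These are 42.1% and 31.6%, beside 25.8% and 26.2% of all genes tested. SESN2, a stress-induced sestrin, rose from 43.6 ± 1.83 to 88.6 ± 1.27 CPM (1.02 ± 0.06), and SELENOW, a small selenoprotein, rose by 0.56 ± 0.06. TXNRD2, the mitochondrial thioredoxin reductase, fell from 122.4 CPM in siSCR to 90.8 CPM in siSURF2 (-0.43 ± 0.06), and MSRB1, a methionine sulfoxide reductase, fell by 0.37 ± 0.06 on the log2 scale.

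Of the 5 heme and iron genes, HMOX1, BLVRB, FTH1 and FTL were called higher, beside 25.8% of all genes tested, and TFRC did not pass. HMOX1, heme oxygenase, which frees iron from heme (chromosome 22, 35380361 to 35394214), was at 144.7, 134.2 and 129.5 CPM in siSCR and 223.6, 258.7 and 271.2 CPM in siSURF2. All siSURF2 libraries were above all siSCR libraries, with siSURF2 replicate 1 the lowest of its group, and the level was 1.85-fold higher (0.88 ± 0.06, adjusted p = 2.0e-11). BLVRB, which reduces biliverdin and flavins, was at 103.1, 102.0 and 95.4 CPM in siSCR and 109.1, 113.8 and 105.0 CPM in siSURF2 (0.13 ± 0.05, adjusted p = 0.049). That call was lost in 10 of 16 alternatives. Without siSCR replicates 1, 2 or 3 the log2 fold change was 0.138, 0.148 and 0.0829 (adjusted p = 0.051, 0.056 and 0.19), and without siSURF2 replicates 1 or 2 it was 0.144 and 0.0952 (0.061 and 0.18). With RLE factors, limma-voom, the non-robust prior and DESeq2 the adjusted p was 0.051, 0.052, 0.051 and 0.073.

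The ferritin chains, heavy (FTH1, an iron oxidase) and light (FTL), form the shell that stores iron. FTH1 (chromosome 11, 61959718 to 61967660) was at 1850, 1600.1 and 1753 CPM in siSCR and 3107, 3066 and 3385 CPM in siSURF2, a 1.84-fold higher level (0.88 ± 0.05, adjusted p = 1.3e-13). FTL (chromosome 19, 48965301 to 48966878) was at 1043, 915.2 and 933.8 CPM in siSCR and 1334, 1342 and 1369 CPM in siSURF2, a 1.40-fold higher level (0.48 ± 0.05, adjusted p = 6.5e-09). Both groups of libraries were apart for both chains, and the heavy chain rose more. The FTH1 to FTL ratio, per exon length, was 0.767, 0.756 and 0.812 in siSCR and 1.01, 0.988 and 1.07 in siSURF2, without overlap (exact two-sided permutation p = 0.10, the smallest possible). In TPM (counts per exon length, scaled to a sum of 1e6), FTL was the most abundant of the 41 in siSCR, at 3896 ± 245.0, followed by FTH1 at 3033 ± 222.0. In siSURF2 the chains were at 5415 ± 190.3 and 5531 ± 267.9 TPM, which do not differ beyond their spread. The standing of the 2 chains in TPM depends on the lengths used, 2030 bases of annotated exons for FTH1 and 878 for FTL. In CPM, without lengths, FTH1 was above FTL in both groups, at 1734 against 964 in siSCR and 3186 against 1348 in siSURF2. Together the chains made up 0.646% to 0.735% of all TPM in siSCR and 1.05% to 1.12% in siSURF2, and the 41 genes together 1.40% to 1.53% and 1.84% to 2.00%. Rows of the 25 FTH1 pseudogenes held counts equal to 1.46% of those of FTH1 in siSCR and 1.55% in siSURF2, and those of FTL to 0.591% and 0.538%.

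Iron regulatory proteins bind a stem-loop, the iron responsive element, at the start of ferritin mRNAs, and its loop carries the letters CAGTG. Bases 21 to 50 after the RefSeq start of FTL (GRCh38.p14) are shown because they hold this loop, in capitals, starting at position 39, and CAGTG on the sense strand within 50 bases of a start was found in 6.48% of all windows of the RefSeq table.
FTL, chr19:48965329-48965358, plus strand: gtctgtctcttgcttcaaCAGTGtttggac
The receptor that imports transferrin-bound iron, TFRC, carries such elements at the other end of its mRNA. TFRC was at 284.5, 311.0 and 312.7 CPM in siSCR and 278.5, 289.2 and 301.7 CPM in siSURF2, with overlapping groups (-0.06 ± 0.05, adjusted p = 0.31). The TFRC to FTH1 ratio, per exon length, was 0.0396, 0.050 and 0.0459 in siSCR and 0.0231, 0.0243 and 0.0229 in siSURF2.

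Of 32 other genes of iron, heme and ferroptosis, 12 rose and 10 fell, with a median of 0.02. These are 37.5% and 31.2%, beside 25.8% and 26.2% of all genes tested. The count of 12 was 7 without siSCR replicate 1, 7 without siSCR replicate 3, 5 without siSURF2 replicate 3 and 6 with DESeq2. IREB2, which encodes an iron regulatory protein, was at 72.8, 76.3 and 73.6 CPM in siSCR and 41.9, 39.4 and 39.6 CPM in siSURF2, without overlap (-0.88 ± 0.06, adjusted p = 4.2e-13). SLC39A14, an importer of zinc and of iron not bound to transferrin, fell from 265.0 ± 12.5 to 169.9 ± 8.16 CPM (-0.64 ± 0.05). STEAP3, the ferrireductase of the transferrin cycle, rose from 87.3 ± 4.25 to 147.5 ± 9.21 CPM (0.76 ± 0.06), and CPOX, an enzyme of heme synthesis, rose by 0.43 ± 0.06.

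**Figure D3:**
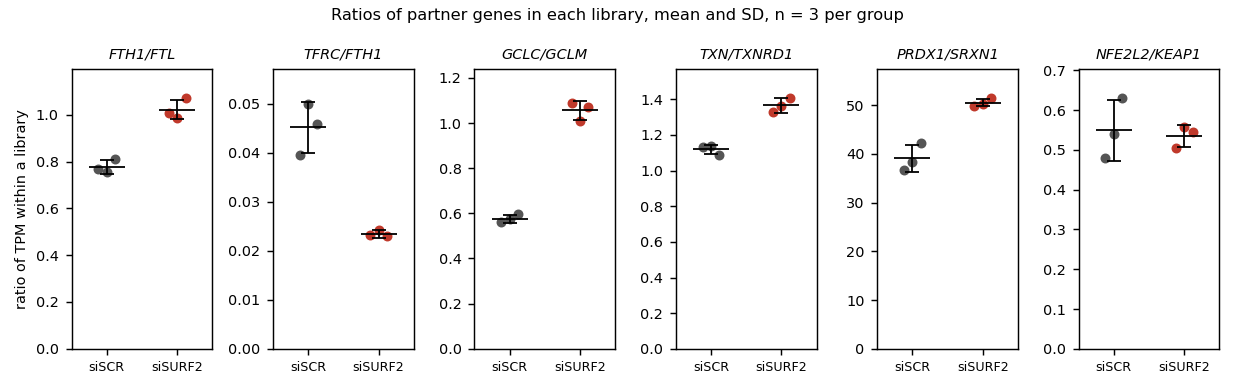
Ratios of partner genes within each library, each gene per exon length (points), with mean and SD (lines), 3 libraries per group and axes from 0. GCLC to GCLM goes from 0.576 to 1.06, FTH1 to FTL from 0.778 to 1.02 and TFRC to FTH1 from 0.0452 to 0.0234 between the group means, while NFE2L2 to KEAP1 overlaps.

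TXN to TXNRD1 was 1.12 ± 0.0287 in siSCR and 1.36 ± 0.0423 in siSURF2, and PRDX1 to SRXN1 was 39.1 ± 2.81 and 50.5 ± 0.787 (SD, n = 3 each, exact permutation p = 0.10 for each). For 5 of the 6 ratios the groups did not overlap, and none can pass 0.05 with this number of libraries. The 6 pairs were chosen after the values were seen, so this count is no test. The share of other gene pairs without overlap was not computed. These ratios do not depend on how library sizes were scaled.

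Genes that remove superoxide and peroxides rose slightly or did not pass, 3 of 5 higher and none lower (edgeR, with median 0.15). Over all genes tested, 25.8% were called higher and 26.2% lower. SOD2, the mitochondrial superoxide dismutase, was at 160.3, 162.2 and 164.1 CPM in siSCR and 180.4, 185.9 and 183.3 CPM in siSURF2, without overlap (0.18 ± 0.05, adjusted p = 0.0030), and shares 298 exonic bases with WTAP on the opposite strand, which rose (0.42). CAT, catalase, was at 49.6, 49.4 and 48.6 CPM in siSCR and 54.7, 60.2 and 56.9 CPM in siSURF2 (0.22 ± 0.06, adjusted p = 0.0026). GPX4, the selenoenzyme that reduces lipid hydroperoxides and guards against ferroptosis, was at 213.8, 186.9 and 185.6 CPM in siSCR and 215.7, 221.7 and 214.4 CPM in siSURF2, with siSCR replicate 1 just under the lowest siSURF2 library (0.15 ± 0.05, adjusted p = 0.018). Its adjusted p was 0.089 without siSCR replicate 2, 0.094 without siSCR replicate 3 and 0.059 without siSURF2 replicate 2. SOD1, the cytosolic dismutase, was at 320.5 ± 6.55 and 330.7 ± 11.1 CPM (0.05 ± 0.05). GPX1, the main cytosolic glutathione peroxidase, was at 191.0 ± 17.2 and 207.5 ± 10.1 CPM and did not pass (0.12 ± 0.06, adjusted p = 0.082, and 0.014 and 0.047 without siSCR replicate 1 and siSURF2 replicate 3). Rows of 2 GPX1 pseudogenes held counts equal to 7.47% of those of GPX1 in siSCR and 7.24% in siSURF2.

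Only 3 of 9 further superoxide and oxidase genes passed the filter on low counts. Among these 3, 2 fell (66.7%, beside 26.2% of all genes tested). CCS, the copper chaperone of SOD1, fell by 0.56 ± 0.09 on the log2 scale. NOX4, an NADPH oxidase that forms hydrogen peroxide, was at 3.39, 4.28 and 3.03 CPM in siSCR and 0.660, 0.723 and 0.600 CPM in siSURF2, without overlap (-2.42 ± 0.26, adjusted p = 6.9e-09).

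**Figure D4:**
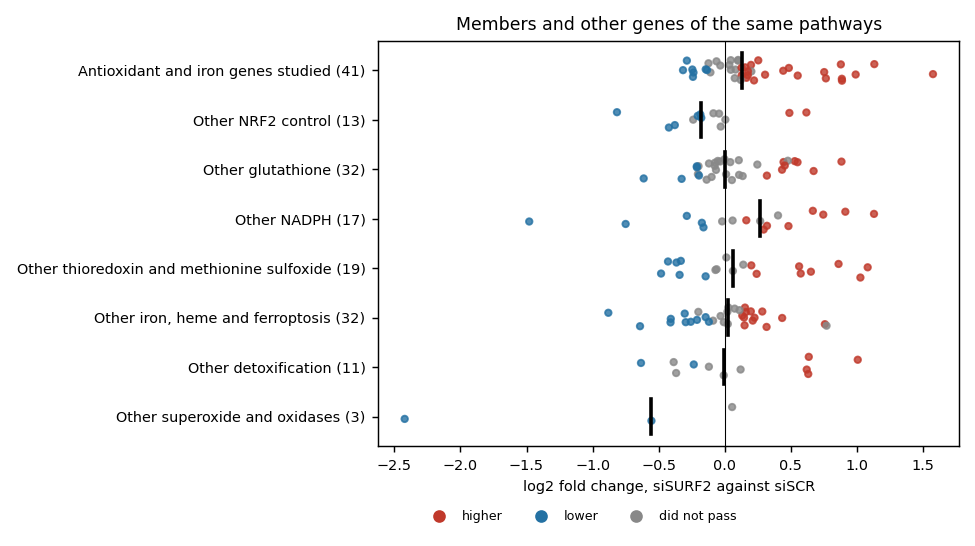
Log2 fold change of siSURF2 against siSCR for each tested gene (points, coloured by edgeR call) of the 41 genes and of 7 lists of other genes of the same pathways, with the number tested in brackets and the median as a line. The median is 0.13 for the 41 genes, 0.27 for the other NADPH genes and -0.18 for the other genes of NRF2 control.

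Over the 7 lists of other pathway genes together, 42 of 127 tested rose and 36 fell, with a median of 0.00953, which is 33.1% and 28.3% beside 25.8% and 26.2% of all genes tested.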

How the data were processed

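Read counts per gene, not normalized, were deposited by the authors in 1 table of 6 libraries. Per the submitters' processing notes the build was GRCh38 and the tools include fastp 0.23.1 and STAR 2.5.2b (counter, annotation and strand: not given in the sources used here). Gene identifiers were matched to a list of symbols, with GENCODE release 29 for 499 identifiers, that of SOD2 among them; coordinates and exon lengths are those of GENCODE release 29.

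Members, lists and tests were chosen with earlier results of these data known. The 92 ERCC spike-ins entered neither library sizes nor tests. Genes were filtered with filterByExpr (minimum count 10, total 15) and tested with edgeR 4.0.16 (TMM factors, robust quasi-likelihood test, group as the single term) in R 4.3.3. The p-values were adjusted by the Benjamini-Hochberg method across the genes tested, with a threshold of 0.05. SE is the unshrunken absolute log2 fold change over the square root of F. The program was tested on simulated data. Genes named outside the 41 are SURF2, the markers, genes that overlap a member, and up to 2 per direction of each other list with the smallest adjusted p. One gene so chosen is not reported here. Alternatives were other scalings, filters, DESeq2 1.42.0, limma-voom 3.58.1, a non-robust prior, the replicate number as a block, and leaving out each library.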

Additional observations from a re-analysis of the deposited data

How the results depend on the processing

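Over 15 alternatives other than spike-in scaling, 19 of the 28 members called kept their call in every one (16 higher, 3 lower), and counts ran from 16 to 23 higher and 4 to 8 lower. On leaving out each library in turn, 16 to 22 members were higher and 4 to 8 lower, the 4 being without siSURF2 replicate 1, with all genes at 4082 to 4292 higher and 3878 to 4574 lower. With ERCC library sizes, 802 genes were higher and 825 lower, and of the members 6 were higher and 0 lower by edgeR (8 and 0 at an unadjusted p under 0.05). The spike-in share differed between libraries of 1 group, and the cause was not tested. Members that were not called changed sign for PGD with ERCC sizes (-0.0152) and TXNRD1 with upper-quartile factors (0.0116), and on leaving out single libraries, where ABCC2 ran from -0.0886 to 0.203, TXNRD1 from -0.0668 to 0.0131 and PRDX3 from -0.0109 to 0.0773. The scalings moved the median of all genes to between -0.04 and 0.05. With the replicate block, 22 members were higher and 7 lower, GPX1 being added (0.12, edgeR adjusted p = 0.043). Same-numbered libraries correlated in their deviations from group means at 0.03, -0.11 and 0.0053. The spike-in share was lowest in replicate 3 of both groups, at 1.12% in siSCR and 1.27% in siSURF2. With 3 libraries per group such values cannot decide whether the numbers pair the libraries, and the labels do not say. Of the 26 other pathway genes chosen by the naming rule, 19 lost their call with ERCC sizes and 0 changed sign. Levels under 1 CPM, as for CBR3, rest on under 20 counts.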
